A study of Mus musculus with 4 samples.

Results

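The genes described here are 38 named mouse genes for nucleolar ribosome assembly and ribosomal RNA (rRNA) processing, chosen by name from the 41324 genes of a deposited count table. The choice was made with earlier results of these data known, so shares set beside all genes are descriptions. All 38 passed the filter on low counts, a mean of at least 1 CPM (count per 1000000 counts of the library), which left 10837 genes to test. RNA came from RAW264.7 cells, a mouse macrophage line grown from a virus-induced tumour, either untreated (0 h) or kept in 10 µg/ml actinomycin D for 2, 4 or 6 h. Actinomycin D binds DNA and stops RNA synthesis, so the fall of an mRNA afterwards follows its decay. Each time had 1 library, the untreated library was the only control, and all 4 came from the same line in the same medium. Whether separate cultures stood behind the times is not in the labels. No time had a replicate check, and p-values measured only the scatter of 4 libraries around a fitted trend.

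Ribosomes are built in the nucleolus. RNA polymerase I copies ribosomal DNA into a long precursor, small nucleolar ribonucleoproteins (snoRNPs) guide its chemical modification, and large sets of assembly factors fold and cut it into the small and the large subunit. The box C/D snoRNPs methylate rRNA riboses and the box H/ACA snoRNPs convert uridines to pseudouridines. Actinomycin D is known to block RNA polymerase I at lower doses than the other polymerases and to disperse the nucleolus. The values here are mRNA levels of the protein factors, not rRNA.

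The libraries held 35669434, 38260540, 70289647 and 12762100 gene counts at 0, 2, 4 and 6 h, so the 6 h values carried the largest counting error. All 10 macrophage markers were expressed, with a summed level of 4250, 4555, 5021 and 5600 CPM. Of 17 markers of T, B, fibroblast, epithelial and endothelial cells none passed the filter, 10 were at 0 in all libraries, and no such cell type's summed level exceeded 0.981 CPM. Cytoplasmic RNA is the molecule named in the labels, yet the nuclear long non-coding RNAs Malat1 and Neat1 were both counted. Malat1 had 3065, 7198, 7863 and 9344 CPM at 0, 2, 4 and 6 h, and Neat1, going the other way, had 410, 269, 184 and 194 CPM.

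Most of the 38 mRNAs did not pass the slope test through 6 h of blocked transcription. A minority, led by Gnl3, Wdr43 and Nop2, fell, and a joint test of slope and bend called more of the 38. On a straight line over the 4 times, 11 of the 38 fell (28.9%), set against 16.8% of all genes tested, and 1 rose (2.63%), set against 8.03% of all genes. The other 26 did not pass this slope test. A call meant an adjusted p under 0.05 in edgeR's quasi-likelihood test of the slope, in log2 per h, with Benjamini-Hochberg adjustment over all genes tested. The slope test has 2 residual degrees of freedom per gene, and the tests of bend and of slope and bend together have 1. With so few, edgeR's p-values and SEs for a gene also lean on the scatter of the other genes. The joint test of slope and bend called 18 as lower (47.4%, against 36.1% of all genes) and 13 as higher (34.2%, against 31.6%). Here lower or higher is the sign of the mean fitted change over the drug times, which was not itself tested. Wdr75, called lower, stood at 106, 101 and 86.4% of untreated at 2, 4 and 6 h. Fbl, called higher, stood at 104, 103 and 92.7%, and Nip7 and Ebna1bp2, also called higher, ended at 92.4 and 97.7%. The lower ones were the 11 that fell and Nolc1, Rrp9, Rrp12, Wdr75, Wdr12, Ftsj3 and Mybbp1a. The median slope of the 38 was −0.019 log2 per h, and that of all genes was 0.0014. Relative to untreated cells, their median level was 100.0, 97.3 and 91.8% at 2, 4 and 6 h, and the median gene was at 100.7, 101.1 and 100.5%. At 6 h, 4 of the 38 (10.5%) were under 50% of their untreated level, set against 16.2% of all genes tested. The 38 mRNAs drew many reads, with a median level of 113 CPM where the median gene had 29.6 CPM; the part that level plays in the number of calls was not tested.

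All these levels are relative to the other RNAs of the same library, as CPM of libraries scaled with TMM (trimmed mean of M values), and in bulk RNA fewer cells and less RNA per cell cannot be told apart. Total mRNA shrinks when transcription stops, and no outside standard was used here, so the zero line is set by the scaling. With total counts 4 of the 38 fell, with ribosomal protein mRNAs as the standard 27 fell, and with the divisors behind the deposited normalized values 34 fell. Of all 10837 genes tested 1318, 2685 and 4963 fell with these. With total counts the share of the 38 that fell was thus no higher than that of all genes. With total counts Nop56, Nop58, Nop14, Bysl, Tsr1, Rrp1b and Polr1b did not pass, although their slopes stayed negative, for example −0.14 for Nop56 (−0.16 with TMM) and −0.11 for Polr1b (−0.14 with TMM). Without the 4 h library, the deepest, 4 fell (Gnl3, Wdr43, Nop2 and Nop56) and 0 rose, and of all genes 233 fell and 12 rose. Slopes moved little there: that of Nob1 was −0.20 with and without it, that of Nop58 −0.12 both ways, and that of Pno1 0.10 without and 0.11 with it. Without the 6 h library 12 fell and 5 rose, and of all genes 2248 fell and 1120 rose. A scaling moves all slopes together, so Gnl3, Wdr43, Nop2 and Nob1 were the steepest falls and Pno1 the highest slope under each of them.

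**Figure D1:**
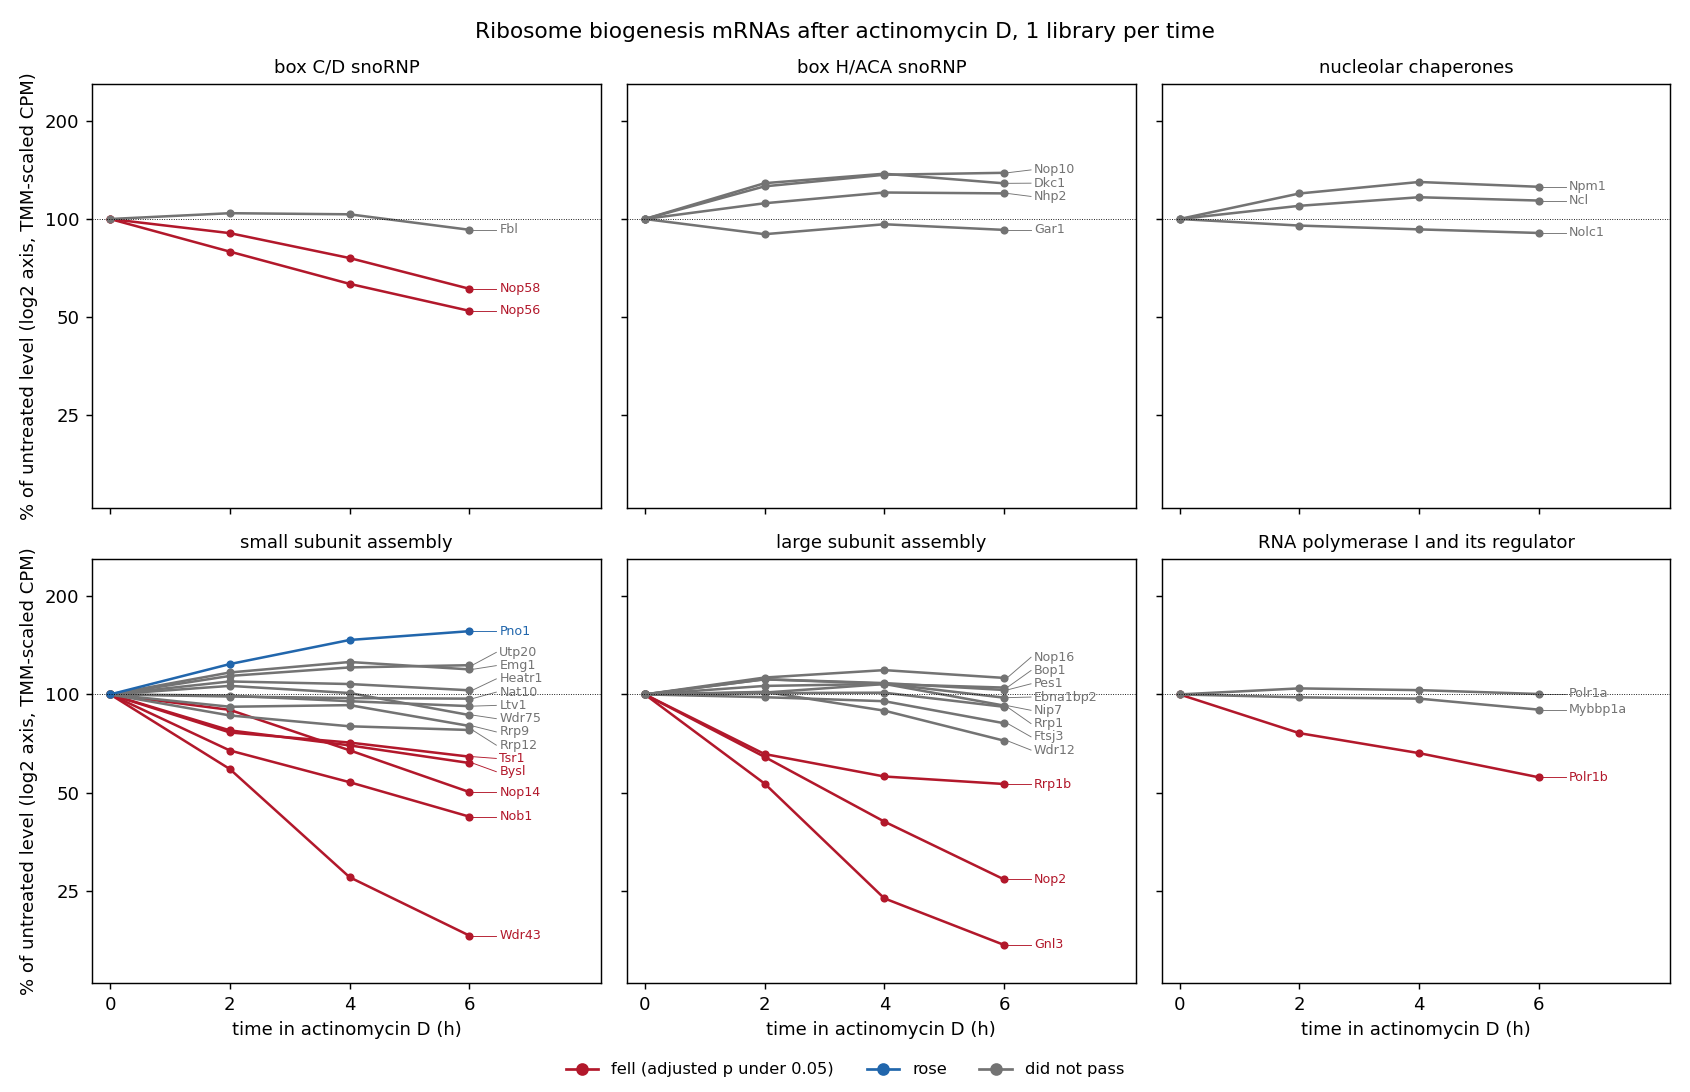
Level of each of the 38 mRNAs as a percentage of its untreated level (y axis, log2 scale) against hours in actinomycin D (x axis), in 6 panels by role, 1 library per time. Red lines mark the 11 genes that fell, the blue line Pno1, the 1 gene that rose, and grey lines those that did not pass; Gnl3 and Wdr43 reach 17.1 and 18.2% at 6 h while most grey lines end near 100%.

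The falling and the rising end of the set can be read beside their own sequence. Gnl3 and Wdr43, the steepest falls, each hold the motif TGTANATA, the core recognised by Pumilio proteins, in the 3' untranslated region (UTR). Nop2, the next in order, and Pno1, the riser, each hold ATTTA, the core of AU-rich elements. One site of each is printed 5′ to 3′ from the GENCODE transcripts of build GRCm38, with the motif in capitals; gene positions further on come from the same annotation. The motif lies 66, 179, 87 and 148 bases after the stop codon in the order below.
Gnl3 (chr14:31012469-31012496, minus strand): ctgtacatctTGTAAATAtgtatcatgt
Wdr43 (chr17:71657830-71657857, plus strand): actttaactgTGTAAATAagagtgtttc
Nop2 (chr6:125144717-125144744, plus strand): atacatatgaaATTTAatatacatatta
Pno1 (chr11:17203770-17203797, minus strand): cttctaggataATTTAaatatgatataa
So the same 5 letters stood in an mRNA that fell and in the one that rose. In 1 principal transcript per gene, ATTTA on the sense strand was present in the 3' UTR of 16 of 38 (42.1%), set against 67.9% of the 9547 tested genes with an annotated 3' UTR. It was present in 5 of the 11 that fell and 11 of the other 27. The longer TATTTAT, which contains ATTTA, was present in 4 (10.5%, against 28.6%). TGTANATA was present in 6 (15.8%, against 25.3%), which were Gnl3, Wdr43, Wdr12, Ltv1, Rrp1 and Ncl. By call, TGTANATA was present in 2 of the 11 that fell (18.2%) and 4 of the other 27 (14.8%). The 3' UTRs of the 38 were short, with a median of 497.5 nt where all tested genes had 1026 nt, and a shorter window holds fewer matches. Gnl3 has a 3' UTR of 119 nt with no ATTTA, and Wdr43 one of 1370 nt with 5 ATTTA.

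At the other end of these genes, the CACGTG E-box, bound by Myc, a known driver of ribosome biogenesis genes, was searched from 250 bases before to 50 bases after the start of transcription. This word is its own reverse complement, so both strands are covered. RefSeq promoters (GRCm38.p6) were matched for 34 of the 38 genes, all but Npm1, Rrp12, Fbl and Bop1. Distances are from the RefSeq start, which can differ from the GENCODE gene positions given elsewhere. For Wdr43, GENCODE starts the gene at 71615895, before the RefSeq start. CACGTG was present in 8 of them (23.5%), set against 12.6% of 7798 tested genes and 8.09% of all 27025 promoters. The 8 were Nop2, Wdr43, Tsr1, Pno1, Ltv1, Utp20, Pes1 and Mybbp1a, 3 of which are among the 11 that fell. The windows of the 4 that passed the slope test are printed to show the word in its setting, with CACGTG in capitals.
Nop2 (chr6:125131811-125131840, plus strand, 60 bases before the start): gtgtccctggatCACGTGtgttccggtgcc
Wdr43 (chr17:71616220-71616249, plus strand, 18 bases after the start): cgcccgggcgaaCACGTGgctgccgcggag
Tsr1 (chr11:74898092-74898121, plus strand, 25 bases after the start): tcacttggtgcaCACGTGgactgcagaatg
Pno1 (chr11:17211540-17211569, minus strand, 38 bases after the start): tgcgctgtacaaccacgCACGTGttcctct
Again the falling and the rising gene carried the same word. A match is a description of letters and not of binding.

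Within the box C/D snoRNP, the mRNAs of the scaffold proteins fell and that of the enzyme did not pass. Nop56 (chr2:130274430-130279313), one of the paired scaffold proteins, had 193, 153, 122 and 101 CPM at 0, 2, 4 and 6 h. Its slope of −0.16 ± 0.012 log2 per h (SE) passed the test over the 4 libraries (edgeR adjusted p = 0.0148). Nop58 (chr1:59684971-59719044), the other scaffold protein, had 214, 194, 163 and 131 CPM, and its slope was −0.12 ± 0.015 (edgeR adjusted p = 0.0189). Both lost a little at every step and at 6 h kept 52.3 and 61.1% of what untreated cells had. Fbl encodes fibrillarin, the methyltransferase of the particle, and had 115, 120, 119 and 107 CPM (slope −0.016, edgeR adjusted p = 0.469).

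None of the 4 box H/ACA genes passed the edgeR slope test, while DESeq2's Wald test called Nhp2 and Nop10 as rises. Dkc1 (chrX:75095854-75109777), the pseudouridine synthase dyskerin, had 140, 180, 192 and 179 CPM at 0, 2, 4 and 6 h. It was higher at all 3 drug times than untreated, with a slope of 0.060 ± 0.028 that did not pass (edgeR adjusted p = 0.159). Nop10, a small core protein of the particle, had 48.7, 61.3, 66.5 and 67.4 CPM (slope 0.077, edgeR adjusted p = 0.0660), the highest slope of the class. Nhp2, the core protein with the highest untreated level of the class per kb of coding sequence (413 CPM per kb), had 191, 213, 230 and 229 CPM. Gar1, which joins late in assembly and favours turnover of the enzyme, had 63.3, 56.9, 61.0 and 58.6 CPM, the lowest slope of the class at −0.012. In the joint test of slope and bend, which also catches changes that level off, Dkc1, Nop10 and Nhp2 were higher than untreated and Gar1 was not called, but with ribosomal protein scaling the slope of Nhp2 turned negative and with the deposited divisors those of all 3 did. In that test 18 of the 38 were lower (47.4%, against 36.1% of all genes) and 13 were higher (34.2%, against 31.6% of all genes), the second share being close to the background.

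None of the 3 nucleolar chaperones passed the edgeR slope test, while DESeq2's Wald test called rises of Ncl (adjusted p = 0.0433) and Npm1 (adjusted p = 0.0145). They include the most abundant mRNAs of the set. Ncl, nucleolin, an RNA-binding protein of the nucleolus, had 1816, 1994, 2118 and 2069 CPM at 0, 2, 4 and 6 h. Npm1, nucleophosmin, which gives the nucleolus its outer layer, had 1282, 1535, 1665 and 1609 CPM. Nolc1, a carrier of snoRNPs known as Nopp140, had 412, 393, 383 and 373 CPM. Ncl and Npm1 were higher at every drug time than untreated and Nolc1 lower at every drug time, with slopes of 0.033, 0.055 and −0.023 (edgeR adjusted p = 0.259, 0.132 and 0.174). Together Ncl and Npm1 took 34.3, 38.4, 41.1 and 42.3% of the counts of the 38 genes at 0, 2, 4 and 6 h. Without them the other 36 held 0.506, 0.641, 0.586 and 0.481% of each library. Per kb of coding sequence in untreated cells, Npm1 came first at 1458 CPM per kb and Ncl next at 855, and Nop14 came last at 26.8 CPM per kb.

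The 14 small subunit factors held both the riser and 5 of the falls. Wdr43 (chr17:71615895-71659031), a subunit of the UTP-A complex that binds the start of the rRNA precursor, had 216, 127, 59.4 and 39.3 CPM at 0, 2, 4 and 6 h. At 6 h it stood at 18.2% of its untreated level, and its slope was −0.43 ± 0.025 log2 per h (edgeR adjusted p = 0.0148). Its level dropped at every step. Its UTP-A partners did not pass the slope test: Wdr75 had 98.7, 105, 99.7 and 85.4 CPM (slope −0.034, edgeR adjusted p = 0.249), and Heatr1 had 250, 274, 269 and 257 CPM (slope 0.0051, edgeR adjusted p = 0.816). The joint test called Wdr75 for slope and bend together (edgeR adjusted p = 0.0042). Its mean fitted change was negative (−0.037 log2), although its level was above untreated at 2 and 4 h and below only at 6 h. Heatr1 was not called in the joint test (edgeR adjusted p = 0.0573).

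Late small subunit maturation held both a fall and the rise. Nob1 (chr8:107412486-107425051), the endonuclease that makes the final cut at the 3′ end of 18S rRNA, had 73.6, 49.5, 39.6 and 31.1 CPM at 0, 2, 4 and 6 h and fell with a slope of −0.20 ± 0.020 (edgeR adjusted p = 0.0157). Pno1 (chr11:17203198-17211568), the RNA-binding protein that sits on the Nob1 cut site, had 63.9, 79.2, 93.8 and 99.8 CPM. Its slope of 0.11 ± 0.017 was the only rise of the 38 (edgeR adjusted p = 0.0261), and at 6 h it stood at 156% of untreated (95% counting interval 145 to 168%). Pno1 was highest at 6 h and Nob1 lowest at 6 h. The slope of Pno1 was positive under every scaling, but it passed with neither total counts (edgeR adjusted p = 0.279) nor the deposited divisors (slope 0.022, edgeR adjusted p = 0.148), nor without the 4 h library (edgeR adjusted p = 0.0925).

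The other 3 falls among small subunit genes were less steep. Nop14 (chr5:34638536-34660148), a subunit of the small subunit processome, had 69.2, 62.0, 46.6 and 34.7 CPM at 0, 2, 4 and 6 h (slope −0.17 ± 0.022, edgeR adjusted p = 0.02). Bysl (chr17:47599331-47611492), bystin, a factor of small subunit precursors, had 88.6, 68.8, 61.8 and 54.6 CPM (slope −0.11 ± 0.017, edgeR adjusted p = 0.0246). Tsr1 (chr11:74898071-74909342), a GTPase-like protein that holds immature small subunits, had 141, 108, 101 and 91.2 CPM (slope −0.10 ± 0.019, edgeR adjusted p = 0.0330). Nop14 lost most after 2 h, whereas Bysl and Tsr1 lost most before 2 h. The other 8 small subunit genes ended between 77.8% (Rrp12, linked in yeast to subunit export) and 123% (Utp20, a large processome protein) of the untreated level at 6 h. Rrp12 had 119, 103, 95.3 and 92.9 CPM and missed the threshold (edgeR adjusted p = 0.0503). Rrp9, the protein specific to the U3 snoRNP, ended at 80.1%. The rRNA-modifying enzymes Nat10, an acetyltransferase, and Emg1, a methyltransferase, ended at 97.1 and 119%, and Ltv1, a late-acting small subunit factor, at 92.1%.

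Among the 11 large subunit factors, 3 fell and 8 did not pass. Gnl3 (chr14:31012433-31019152), nucleostemin, a nucleolar GTPase, had 135, 72.0, 32.0 and 23.1 CPM at 0, 2, 4 and 6 h, the steepest fall of the 38. At 6 h it stood at 17.1% of untreated (95% counting interval 15.1 to 19.3%), with a slope of −0.45 ± 0.035 (edgeR adjusted p = 0.0148). Nop2 (chr6:125131909-125144753), an rRNA cytosine methyltransferase, had 229, 148, 93.4 and 62.1 CPM, ended at 27.1% and had a slope of −0.32 ± 0.012 (edgeR adjusted p = 0.0148). Both dropped at every step, like Wdr43.

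Rrp1b (chr17:32036100-32062865) and Rrp1 are paralogs whose yeast relative acts in large subunit rRNA processing. Rrp1b had 101, 66.6, 56.8 and 53.9 CPM at 0, 2, 4 and 6 h (slope −0.15 ± 0.031, edgeR adjusted p = 0.0376). Rrp1 had 181, 183, 183 and 166 CPM (slope −0.018, edgeR adjusted p = 0.359). Rrp1b lost most before 2 h and little afterwards, and Rrp1 was level until 4 h. The PeBoW complex, which is needed for large subunit rRNA processing, had no member past the edgeR slope test with TMM: Wdr12 had 95.8, 97.5, 85.4 and 69.1 CPM (slope −0.079, edgeR adjusted p = 0.0615), while Pes1 and Bop1 ended at 103 and 105% of untreated. Wdr12 did pass as a fall in DESeq2's Wald test (adjusted p = 0.0139), with ribosomal protein scaling and the deposited divisors, and without the untreated library (slope −0.12). Nop16, a pre-large-subunit protein, had the highest slope of the class at 0.030 and ended at 112%. Ftsj3, an rRNA methyltransferase, ended at 81.6%, and Nip7 and Ebna1bp2, both large subunit assembly proteins, at 92.4 and 97.7%.

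Of the RNA polymerase I genes, the mRNA of 1 subunit fell and that of the other did not pass. Polr1b (chr2:129100995-129126594), its second-largest subunit, had 102, 77.4, 67.2 and 56.7 CPM at 0, 2, 4 and 6 h (slope −0.14 ± 0.016, edgeR adjusted p = 0.0184). Polr1a, the largest subunit, had 218, 228, 225 and 219 CPM, with a slope of −0.00016 ± 0.013 (edgeR adjusted p = 0.993). Mybbp1a, a nucleolar regulator of the polymerase, had 825, 808, 801 and 741 CPM (edgeR adjusted p = 0.218). Polr1b ended at 55.7% of untreated while Polr1a ended at 100.3%.

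**Figure D2:**
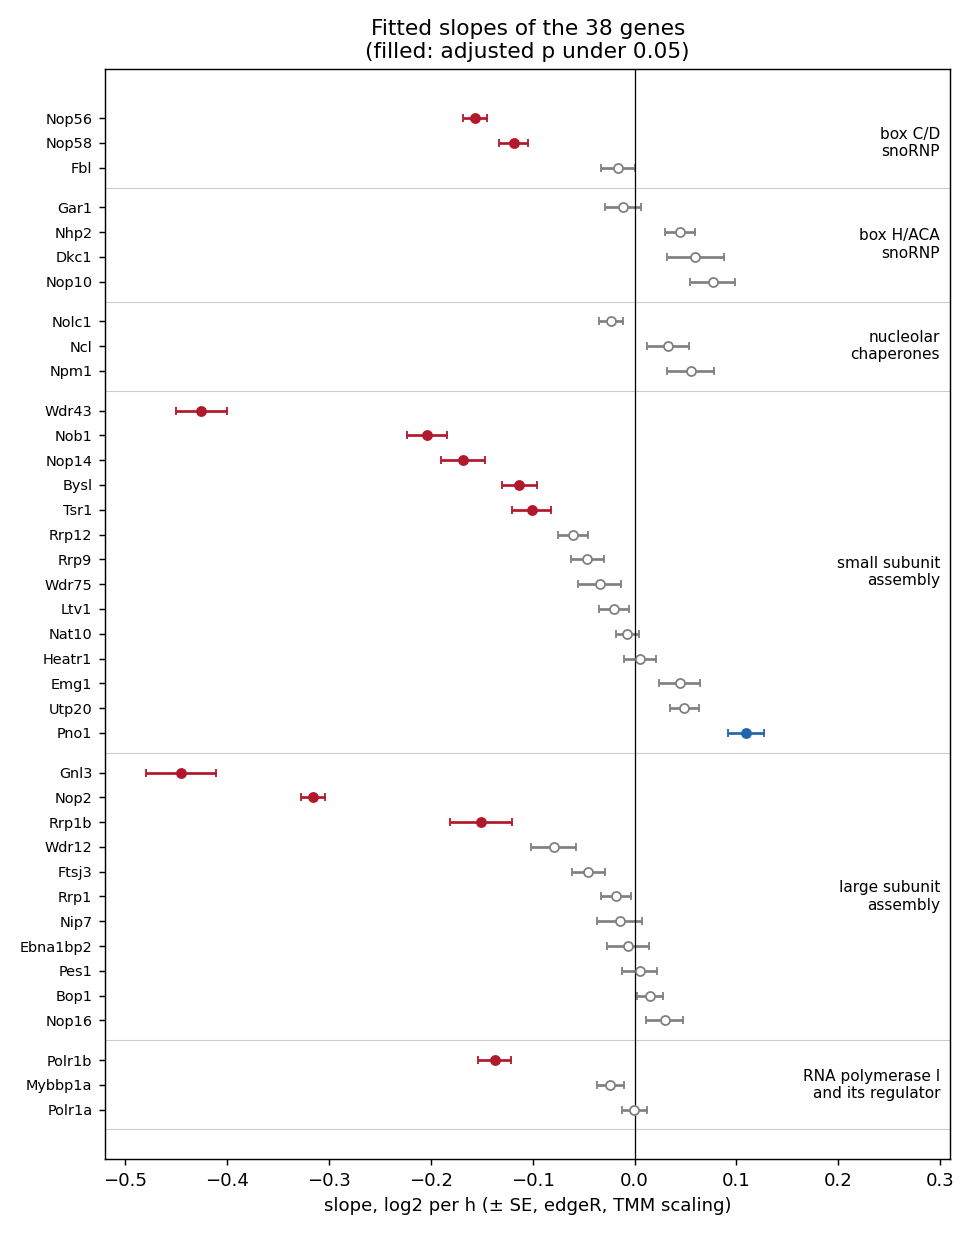
Slope of each of the 38 mRNAs in log2 per h (x axis; points with bars of 1 SE derived from edgeR's test over 4 libraries), by role and gene down the page. Filled coloured points passed the test and open grey points did not; the falls run from −0.45 for Gnl3 to −0.10 for Tsr1, and Pno1, at 0.11, is the only filled point above 0.

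Ratios between genes of the same library do not depend on the scaling and were taken for genes of the same complex or family. For Polr1b over Polr1a the count ratio was 0.466, 0.340, 0.299 and 0.259 at 0, 2, 4 and 6 h, lower at each later time. For Rrp1b over Rrp1 it was 0.560, 0.364, 0.310 and 0.325, and for Nop56 over Nop58 it was 0.900, 0.789, 0.750 and 0.770. At 6 h these ratios stood at 55.5, 58.0 and 85.6% of their untreated values. The two-sided exact permutation test of the slope over 4 libraries gave p = 0.0833, 0.167 and 0.25 for these 3 pairs, all 0.25 after Benjamini-Hochberg adjustment over the 3, and 0.0833 is the smallest p that 4 libraries allow. Another 2 pairs were picked after their values were seen and are described without a test. Wdr43 over Wdr75 was 2.18, 1.21, 0.595 and 0.461, and Nob1 over Pno1 was 1.15, 0.626, 0.422 and 0.311. Both were lower at each later time.

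**Figure D3:**
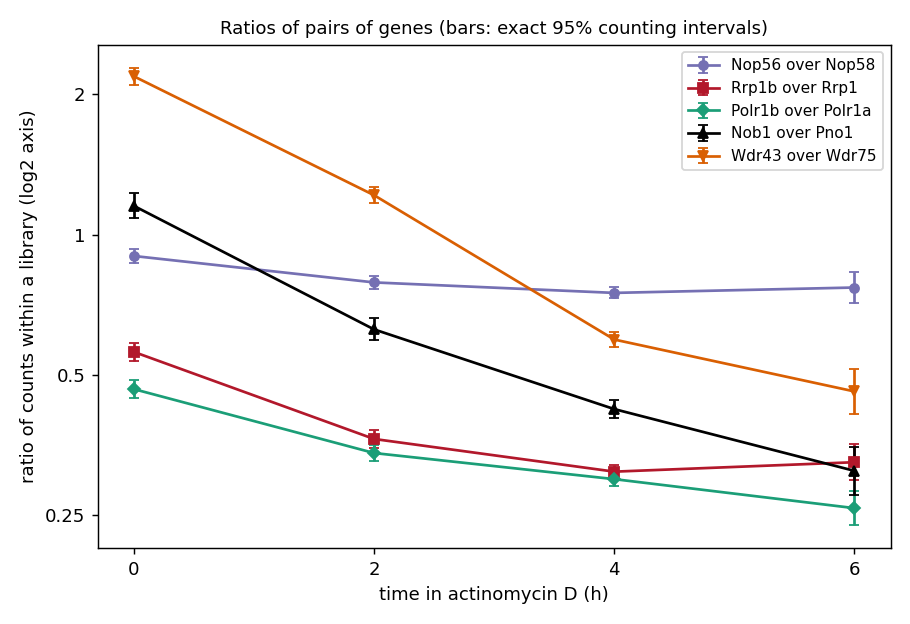
Ratio of the counts of 2 genes within each library (y axis, log2 scale) against hours in actinomycin D (x axis) for 5 pairs, with exact 95% intervals that cover counting error only. All 5 ratios are lower at 6 h than untreated, from 85.6% of the untreated ratio for Nop56 over Nop58 to 21.1% for Wdr43 over Wdr75.

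The shape of the course was tested as the quadratic term of time. A downward bend, a course that turns down or levels off, was called in 10 of the 38 (26.3%), set against 10.6% of all genes, and an upward bend, an early loss that slows, in 1 (2.63%), set against 18% of all genes. Rrp1b was the gene with the upward bend, at 0.034 log2 per h squared (edgeR adjusted p = 0.00354). The largest downward bends were those of Dkc1 at −0.029 (edgeR adjusted p = 0.00129) and Wdr12 at −0.021 (edgeR adjusted p = 0.0163). The other 8 were Nop10, Nip7, Ebna1bp2, Pes1, Nop16, Npm1, Wdr75 and Emg1. In all of these but Nop10, the level at 6 h was below that at 4 h. The 6 h library was the shallowest, and its part in these bends was not tested, since the quadratic fit has no residual degree of freedom without it.

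**Figure D4:**
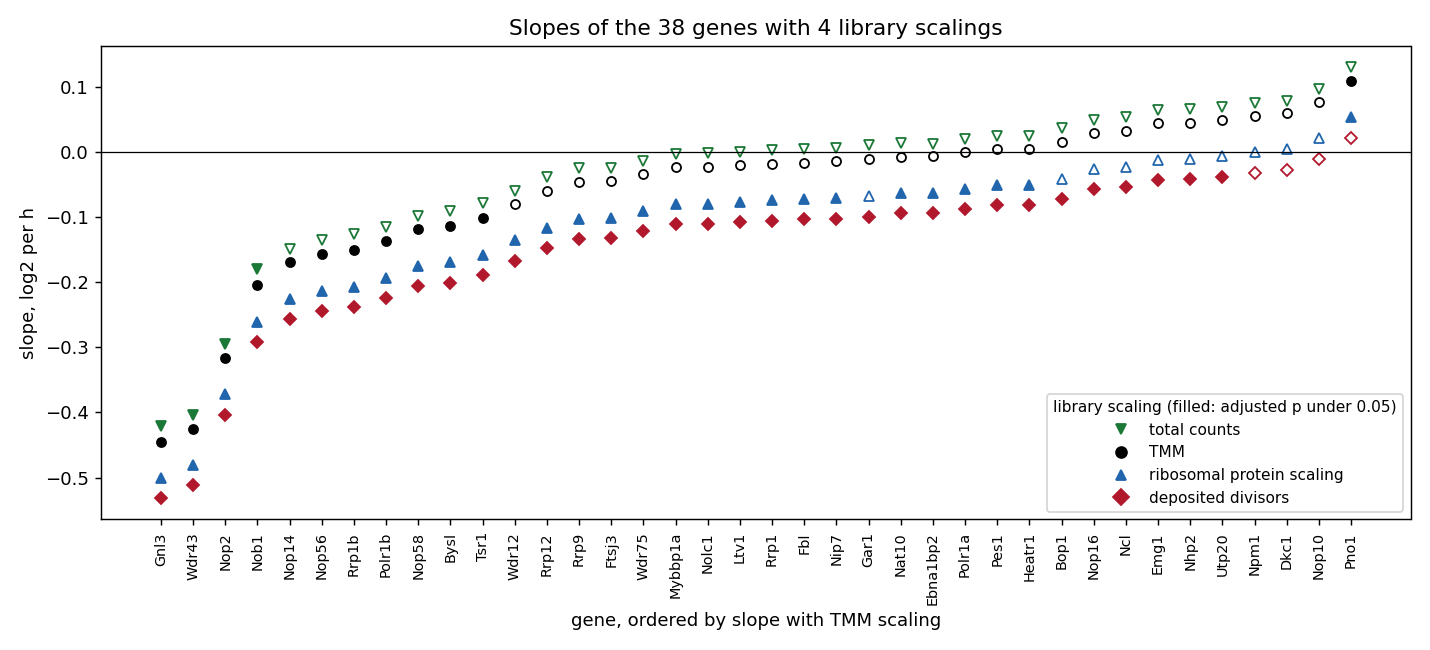
Slope of each of the 38 mRNAs in log2 per h (y axis) under 4 scalings of the libraries, with genes ordered along the x axis by their TMM slope; filled symbols have an adjusted p under 0.05. The 4 sets of symbols run parallel, and Gnl3, Wdr43, Nop2 and Nob1 are filled in all of them.

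The authors' deposited table gives a half-life for every one of the 38 genes. All 14957 half-lives in the authors' deposited table were recovered, to a relative tolerance of 1e-06, from a straight line through the untreated point on the logarithm of the normalized values at 2 and 4 h, so the 6 h library was not used in them. In the authors' deposited table the shortest of the 38 were those of Gnl3 at 1.59 h, Wdr43 at 1.76 h, Nop2 at 2.25 h, Nob1 at 2.80 h and Rrp1b at 2.86 h. The authors' deposited table lists 10 of the 38 under 4 h, 14 between 4 and 10 h and 11 above 10 h, up to 50.1 h for Npm1, and 3 below 0. The share under 4 h in the authors' deposited table was thus 26.3% of the 38, close to the 26.7% of all tested genes. The share above 10 h was 28.9%, against 35.9%, and the share below 0 was 7.89%, against 9.12%. The negative entries in the authors' deposited table were those of Nop10, Dkc1 and Pno1, whose fitted line through 4 h did not slope down. The median of the positive entries in the authors' deposited table was 7.33 h for 35 of the 38. It was 6.14 h over all positive entries among the 14957, which include genes below the filter used here. A line fitted to all 4 times on the same normalized values gave a longer half-life than the authors' deposited table for 27 of these 35 genes and a shorter one for 8, by a factor of 0.629 to 1.499. Unlike the authors' line it was not held to the untreated point, so the part of the 6 h library alone was not tested. The 10 genes under 4 h in the authors' deposited table are all among the 11 that fell here, and Nop58, at 4.65 h there, is the other. Both measures come from the same counts, so this overlap is not separate support.

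Other ribosome biogenesis genes were taken from a wider list with none of the 38 in it. That list too was chosen with earlier results of these data known, so its shares are descriptions and not independent support. Of 128 listed genes 127 were tested, 55 fell (43.3%, against 16.8% of all genes) and 0 rose, with a median slope of −0.073 log2 per h. The falls numbered 10 without the 4 h library, 29 with total counts and 108 with the deposited divisors. Over all genes they numbered 233, 1318 and 4963. At an unadjusted p under 0.05 edgeR gave 7 rises, and DESeq2's Wald test called 63 falls and 4 rises. Over all genes the DESeq2 test called 2162 falls and 1529 rises. By role, 23 of 45 large subunit factors fell, 17 of 42 small subunit factors, 7 of 19 exosome and RNase MRP components, 5 of 12 RNA polymerase I transcription genes and 3 of 9 snoRNP assembly genes. The steepest 5 at a mean CPM of at least 5 are described. The first was Nufip1, which helps to assemble box C/D snoRNPs and had 44.9, 24.8, 10.3 and 5.72 CPM at 0, 2, 4 and 6 h (slope −0.51 ± 0.030, edgeR adjusted p = 0.0148). Mphosph10, a small subunit processome protein, and Cd3eap, an RNA polymerase I subunit, followed with slopes of −0.41 each and ended at 19.6 and 19.97% of untreated. Ppan and Surf6, both large subunit assembly proteins, had slopes of −0.37 and −0.34 and ended at 22.0 and 25.7% (edgeR adjusted p = 0.0383 and 0.0296).

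Cytosolic ribosomal protein mRNAs, whose products these factors assemble, went the other way on this scale. Of 82 tested, 0 fell and 15 rose (18.3%, against 8.03% of all genes), with a median slope of 0.056 log2 per h. With the deposited divisors that median was −0.0305 and 23 of the 82 fell, where all genes had a median of −0.086 and 4963 of 10837 fell. With total counts 1 ribosomal protein mRNA rose, and without the 4 h library 0 rose, where 205 and 12 of all genes did. At an unadjusted p under 0.05 the edgeR test gave 0 falls among them, and the DESeq2 test called 0 falls and 62 rises. Their median stood at 118, 124 and 127% of untreated at 2, 4 and 6 h, where the median of the 38 was at 100.0, 97.3 and 91.8%.

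**Figure D5:**
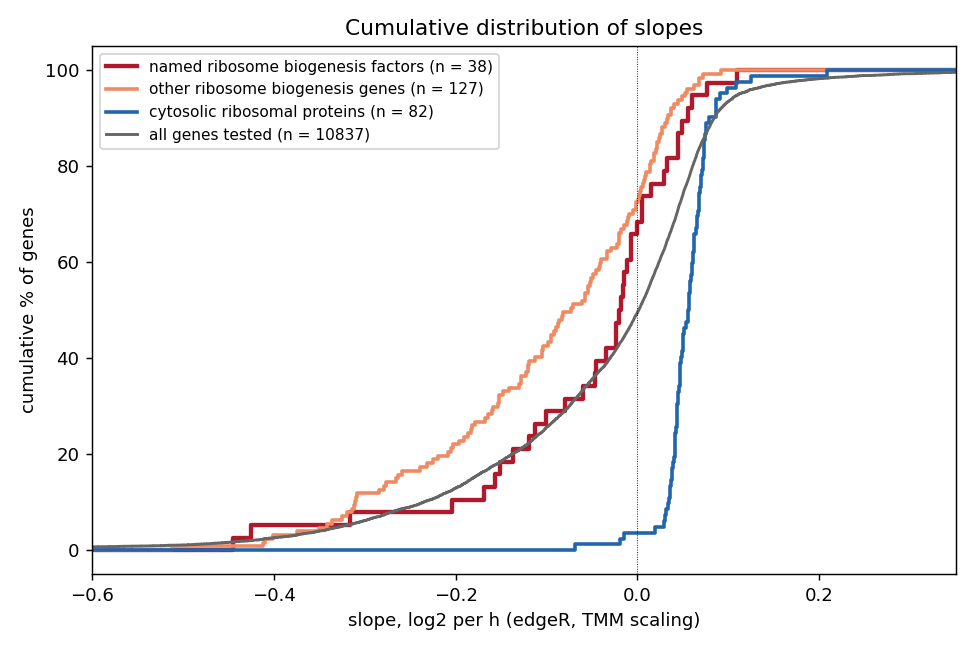
Cumulative share of genes (y axis) at or below each slope in log2 per h (x axis) for the 38 genes, the other ribosome biogenesis genes, the cytosolic ribosomal proteins and all genes tested. The medians are −0.019, −0.073, 0.056 and 0.0014 log2 per h, so the median of the 38 lies between those of the other ribosome biogenesis genes and the ribosomal proteins.

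Some of the 38 genes hold small nucleolar RNA genes between their ends on the same strand, so that 1 transcript can yield both an rRNA-guiding RNA and an mRNA for an rRNA-processing protein. In the GENCODE annotation this held for 7 of the 38 (18.4%, against 2.01% of tested protein-coding genes): Nop56, Nop58, Dkc1, Ncl, Wdr43, Tsr1 and Gnl3. Those in Wdr43 overlapped no annotated exon of the host, whereas Snord69, Gm24916 and Snord19 in Gnl3 did, so a place in an intron was not shown for each. Of the 7 hosts 5 fell, all but Dkc1 and Ncl, and of the other 31 genes 6 fell. Across all tested genes 29 of 193 hosts fell (15.0%) and 1659 of 9431 other genes (17.6%). The hosted snoRNAs themselves cannot be followed here: 18 of 21 were at 0 in all libraries and the highest count was 36.

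A further property bears on how the counts were made. Exons of 18 of the 38 genes overlap exons of a gene on the opposite strand, among them 7 of the 11 that fell: Nop56 with Idh3b, Nop14 with Gm15522, Wdr43 with CT010429.2, Bysl with Ccnd3, Tsr1 with Srr, Rrp1b with Hsf2bp and Gnl3 with Pbrm1. The kit keeps strand, but the sources used here do not say whether counting used it. Without strand, reads of such partners cannot be told apart. Nop2, Nob1, Nop58 and Polr1b fell and have no such overlap. The overlapping genes that did not fall were Dkc1, Nhp2, Rrp9, Heatr1, Pno1, Emg1, Wdr12, Bop1, Pes1, Polr1a and Mybbp1a. Overlap was thus present in a larger share of the falls than of the other genes, and its part in the falls was not tested. Such overlaps were not counted over all tested genes, so whether these numbers are unusual is not known.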

How the data were processed

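The 38 genes, their roles and the wider lists were chosen with earlier results of these data known. Gene counts, as deposited, were whole numbers, made on build mm10 with STAR 2.5.3a, featureCounts and Subread 1.6.3, per the submitters' processing notes; the sources used here do not give the annotation release, strand setting or treatment of multi-mapping reads. The authors' normalized signal is each library's counts divided by 1 whole number, as recomputation showed; the sources used here do not give its origin. The deposited half-life was read as a score, and the deposited R2 as a fraction. Columns not matched to a sample numbered 0.

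Slopes, bends and their joint test were fitted on all 10837 genes with a mean CPM of at least 1, using edgeR 4.0.16 (R 4.3.3), TMM and Benjamini-Hochberg adjustment at 0.05; lower or higher in the joint test is the sign of the mean fitted change at 2, 4 and 6 h. The script was checked on simulated counts. Levels are counts per 1000000 of the TMM-scaled library, and 95% intervals cover counting error only. Exons and UTRs came from GENCODE M21, matched by symbol for 9798 of the tested genes (90.4%). All 38 genes could be named; described in full were every gene past the slope test, the 3 largest bends, each role's most abundant and steepest genes, 3 pairs, and the 5 steepest falls of the wider list at a mean CPM of at least 5. Alternatives were 4 other scalings, 2 filters, DESeq2 1.42.0 and leaving out each library.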

Additional observations from a re-analysis of the deposited data

How the results depend on the processing

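No paired analysis was possible because each time has 1 library and none carries a replicate number shared between groups. Gnl3, Wdr43 and Nop2 fell under all 11 alternatives; all 11 falls held in every alternative but total counts, which called Gnl3, Wdr43, Nop2 and Nob1, and leaving out the 4 h library, which called Gnl3, Wdr43, Nop2 and Nop56. The counts varied with the scaling. Relative to TMM, the median gene moved over 6 h by 0.13 (total counts), −0.34 (ribosomal protein scaling) and −0.53 log2 (deposited divisors), and falls made up 86.5, 94.8 and 98.6% of all calls with these and 67.6% with TMM. With total counts falls (1318) and rises (205) were both fewer than with TMM (1817 and 870), so that split does not follow the shift of the median gene, and the cause was not tested. Under total counts 4 of the 38 fell and 0 rose, their median slope was 0.0013, 11 were lower and 21 higher in the joint test, and 29 of the wider list fell. Under ribosomal protein scaling 27 fell (2685 of all genes), the median slope was −0.076, and 29 were lower and 1 higher in the joint test. Under the deposited divisors 34 fell and 0 rose (4963 and 72 of all genes). The median slope was −0.11, 36 were lower and 0 higher, and 108 of the wider list fell. The DESeq2 test called 6 rises (Pno1, Nhp2, Nop10, Ncl, Npm1 and Utp20), 13 falls, and 4 rises in the wider list. Over all 10837 genes it called 1529 rises and 2162 falls, so the share of rises among the 38 was close to that of all genes.

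Leaving out 1 library gave 4 to 14 falls, 0 to 5 rises and a median slope of −0.036 to −0.010 log2 per h. In the wider list it gave 10 to 58 falls and 0 to 2 rises. Over all genes it gave 233 to 2248 falls and 12 to 1120 rises. The lowest counts of falls, 4 and 10, came without the 4 h library, and the 5 rises without the 6 h library. The joint test could not be fitted without a library.

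Signs turned only in genes that did not pass with TMM, but some passed after turning: Heatr1 and Pes1 fell under both ribosomal protein scaling and the deposited divisors, and Nhp2, Ncl, Utp20, Emg1, Nop16 and Bop1 fell under the deposited divisors, 3 of which (Nhp2, Ncl and Utp20) the DESeq2 test called as rises. Under total counts the slopes became 0.0038 (Fbl), 0.011 (Gar1), 0.013 (Nat10), 0.00028 (Ltv1), 0.0023 (Rrp1), 0.0057 (Nip7), 0.013 (Ebna1bp2) and 0.020 (Polr1a). Under ribosomal protein scaling they became −0.011 (Nhp2), −0.023 (Ncl), −0.00076 (Npm1), −0.051 (Heatr1), −0.0070 (Utp20), −0.012 (Emg1), −0.027 (Nop16), −0.041 (Bop1) and −0.051 (Pes1). Under the deposited divisors they became −0.027 (Dkc1), −0.042 (Nhp2), −0.010 (Nop10), −0.054 (Ncl), −0.032 (Npm1), −0.082 (Heatr1), −0.038 (Utp20), −0.043 (Emg1), −0.058 (Nop16), −0.072 (Bop1) and −0.082 (Pes1). Leaving out 1 library gave ranges of −0.045 to 0.027 (Ebna1bp2), −0.041 to 0.012 (Fbl), −0.018 to 0.013 (Gar1), −0.022 to 0.026 (Heatr1), −0.046 to 0.027 (Nip7), −0.027 to 0.029 (Pes1), −0.014 to 0.011 (Polr1a), −0.034 to 0.0044 (Rrp1) and −0.072 to 0.0033 (Wdr75). Apart from the scalings and left-out libraries, the cause of these changes was not tested.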
